A study of Mus musculus with 24 samples.

Results

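All livers of mice given extracellular vesicles (EVs) were compared with the livers of mice given phosphate-buffered saline (PBS), with attention to genes of the cellular and systemic stress responses. Of the 24 liver RNA-seq libraries of the study, the 18 with an EV treatment label formed the EV side and the 6 with the label PBS the other side. The EV side held 3 groups of 6 libraries, which entered with equal weight: EVs of MCF10A cells (a non-tumorigenic human breast epithelial line), EVs labelled MCF10A/miR-122 (the same line, with the liver-abundant microRNA miR-122 in the label) and EVs labelled MDA-MB-231 (a human metastatic breast cancer line). All mice were female NOD scid gamma (NSG) mice, an immunodeficient strain without mature T, B and natural killer cells, and the labels give their age as 8 weeks. EVs (about 10 µg per injection) or PBS alone were given by tail vein, with 2 injections a week over 5 weeks, and RNA was extracted from livers collected 2 days later. The particles are human material in a mouse host, and the labels name no group given EVs from another source or empty particles, so an effect of any injected particle and one of breast cell EVs cannot be told apart here. In 12 libraries the treatment label and the library name contradict each other: the names point to MDA-MB-231 where the label gives MCF10A/miR-122, and the reverse. Both groups enter the mean of all EVs with the same weight, so this comparison does not depend on which holds, and the groups are called below by their treatment label.

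The liver answers stress both within each cell and as an organ. Within the cell, heat shock factor (HSF1) induces chaperones when proteins misfold in the cytosol, the unfolded protein response enlarges the folding capacity of the endoplasmic reticulum (ER), the integrated stress response acts through ATF4, NRF2 induces antioxidant enzymes, and p53 halts growth. From outside, glucocorticoids secreted by the adrenal act on the glucocorticoid receptor of hepatocytes and raise genes of fasting metabolism, and the cytokines interleukin 1 and interleukin 6 raise the acute phase plasma proteins that hepatocytes secrete. In this tissue glucocorticoid action and the acute phase response overlap, since glucocorticoids potentiate many acute phase genes.

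The deposited counts summed to 21.3 to 33.7 M per library, and levels are given as CPM, counts per M after scaling. The running numbers in the library names go on without a break, and they are split here into the first 12 and the last 12. Labels and names give no batch, so these 2 sets are a division made here. The last set, with both other EV groups, held 30.9 ± 1.95 M counts (SD, n = 12), and the first set, with MCF10A EV and PBS, 25.9 ± 2.53 M (SD, n = 12). Each group lies wholly within 1 set, so for 2 of the 3 EV groups the treatment cannot be told apart from any other difference between the sets. Between the mean of those 2 groups and MCF10A EV, 2281 of 13773 genes (16.6%) differed. The value of MCF10A EV livers alone against PBS livers lies within the first set and is therefore given beside the pooled value for many of the genes named. Where it is not given, a gene that passed in the pooled test need not pass within the first set. Of the marker lists, hepatocyte genes summed to 125190, 150209 and 170991 CPM (lowest, median and highest) in EV livers, against 123267, 131715 and 153607 CPM in PBS livers. The macrophage and Kupffer cell markers summed to 278, 376 and 799 CPM in EV livers, against 324, 354 and 425 CPM in PBS livers, with none of 12 past the pooled test. The pooled test was passed by 12.6% of all genes. In the single comparisons 7 of the 12 were higher past the test with the label MCF10A/miR-122 EV (median log2 fold change 0.45), against 8.35% of all genes, and none in the other EV groups. Among the EV groups 8 of the 12 differed, against 13.3% of all genes. The 10 lymphocyte markers summed to 0.894 to 2.38 CPM in EV livers and 0.964 to 1.79 CPM in PBS livers, and 3 of them were at 0 in all 24 libraries. In whole liver, fewer cells of a type and less RNA per cell cannot be told apart.

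Stress genes moved mostly upward in EV livers. Of 432 stress genes on 13 lists, 413 passed the filter on low counts, and in edgeR's quasi-likelihood test of the mean of the 3 EV groups against PBS 61 were higher and 16 lower at an adjusted p of 0.05, against 5.42% and 7.17% of all genes. With the further condition of 1 sign in each of the 3 EV groups, 59 were higher (14.3% of those tested) and 14 lower (3.39%), while 336 of the 413 did not pass the test of the mean. The same criteria were met by 717 of all 13773 genes in the higher direction (5.21%) and 860 in the lower direction (6.24%). The lists and their members were chosen with earlier results of these data known, so these shares are no independent test of the lists. The median log2 fold change was 0.08 over the stress genes and 0.00 over all genes. In MCF10A EV livers alone, 9 stress genes were higher and 4 lower at an adjusted p of 0.05, against 51 (0.37%) and 96 (0.697%) of all genes, and leaving out PBS replicate 3 or 5 gave 26 or 741 genes in both directions. With the label MCF10A/miR-122 EV the stress counts were 73 higher and 20 lower, against 8.35% and 9.53% of all genes, and with the label MDA-MB-231 EV 48 higher and 17 lower, against 5.33% and 6.34%. Of the 73 stress genes with 1 sign, 47 also had an unadjusted p below 0.05 in MCF10A EV against PBS, as did 825 of all 1577 genes with 1 sign. Over all genes tested 17.3% had such a p. Both the 73 and the 1577 were chosen with the same MCF10A EV and PBS livers, which favours a low p there. Without PBS replicate 1 the 1577 became 962. The 4 members of most lists with the smallest p, and genes central to each pathway whether or not they passed, are described below.

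**Figure D1:**
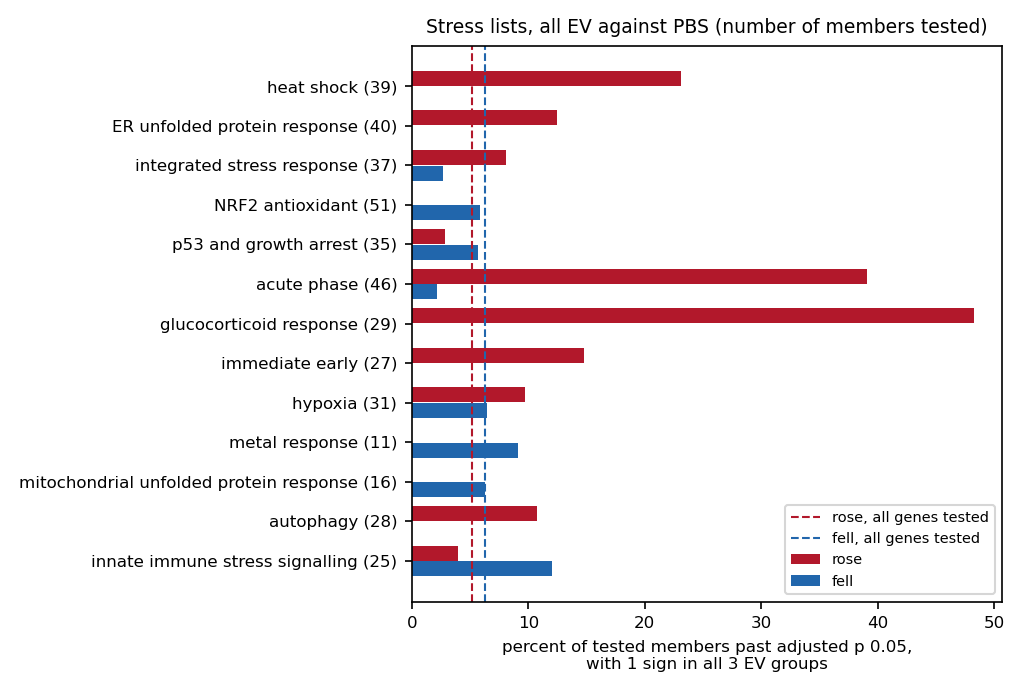
Share of the tested members of each stress list that passed an adjusted p of 0.05 in all EV against PBS with 1 sign in each of the 3 EV groups, higher in EV livers in red and lower in blue, with the number of members tested in brackets. Dashed lines mark the shares over all genes tested, 5.21% higher and 6.24% lower, and the glucocorticoid list, with 14 of 29 higher, extends farthest from them. The lists were chosen with earlier results of these data known.

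Genes that passed in each of the 3 EV groups against PBS on their own numbered 57 of 13773 (0.414%), and 7 of these were stress genes. The 3 single comparisons share the 6 PBS livers. Of these, 5 rose: Tsc22d3, Angptl4, Il1r1, Hp and Lrg1. The growth arrest gene Gadd45a and Tifa, an adaptor of innate immune signalling to NF-kappaB, fell. Il1r1, the signalling receptor of interleukin 1, had 29.9, 50.1 and 91.9 CPM in EV livers (lowest, median and highest of 18), against 18.3, 25 and 28 CPM in PBS livers (log2 fold change 1.14, SE 0.15, adjusted p = 1.71e-05). All 18 EV livers lay above all 6 PBS livers, and in MCF10A EV livers alone the log2 fold change was 0.86 (adjusted p = 0.0152). Hp, which encodes the hemoglobin-binding plasma protein haptoglobin, had 2209.6, 2851 and 3774 CPM in EV livers, against 1577, 1832 and 2012 CPM in PBS livers (log2 fold change 0.66, SE 0.09, adjusted p = 2.51e-05), again without overlap. Lrg1, a leucine-rich acute phase glycoprotein, had 197, 294 and 394 CPM in EV livers, against 158, 193 and 234 CPM in PBS livers (log2 fold change 0.57, SE 0.11, adjusted p = 0.00116), and 15 of the 18 EV livers lay above every PBS liver. Gadd45a had 1.09, 2.41 and 5.96 CPM in EV livers, against 2.27, 8.17 and 14.3 CPM in PBS livers (log2 fold change -1.62, SE 0.27, adjusted p = 0.000357), and Tifa 16.3, 22.1 and 28.8 CPM in EV livers, against 21.9, 30.4 and 34.2 CPM in PBS livers (log2 fold change -0.49, SE 0.10, adjusted p = 0.00231). Both groups overlapped for these 2 genes, with 8 EV livers below every PBS liver for Gadd45a and 9 for Tifa. The lowest PBS liver was replicate 6 for Gadd45a and replicate 5 for Tifa. The count of 7 became 2 without PBS replicate 3, 24 without PBS replicate 5 and 12 without PBS replicate 6. It became 4 without PBS replicate 1, 2 or 4 or MCF10A EV replicate 1, 3 or 6.

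**Figure D2:**
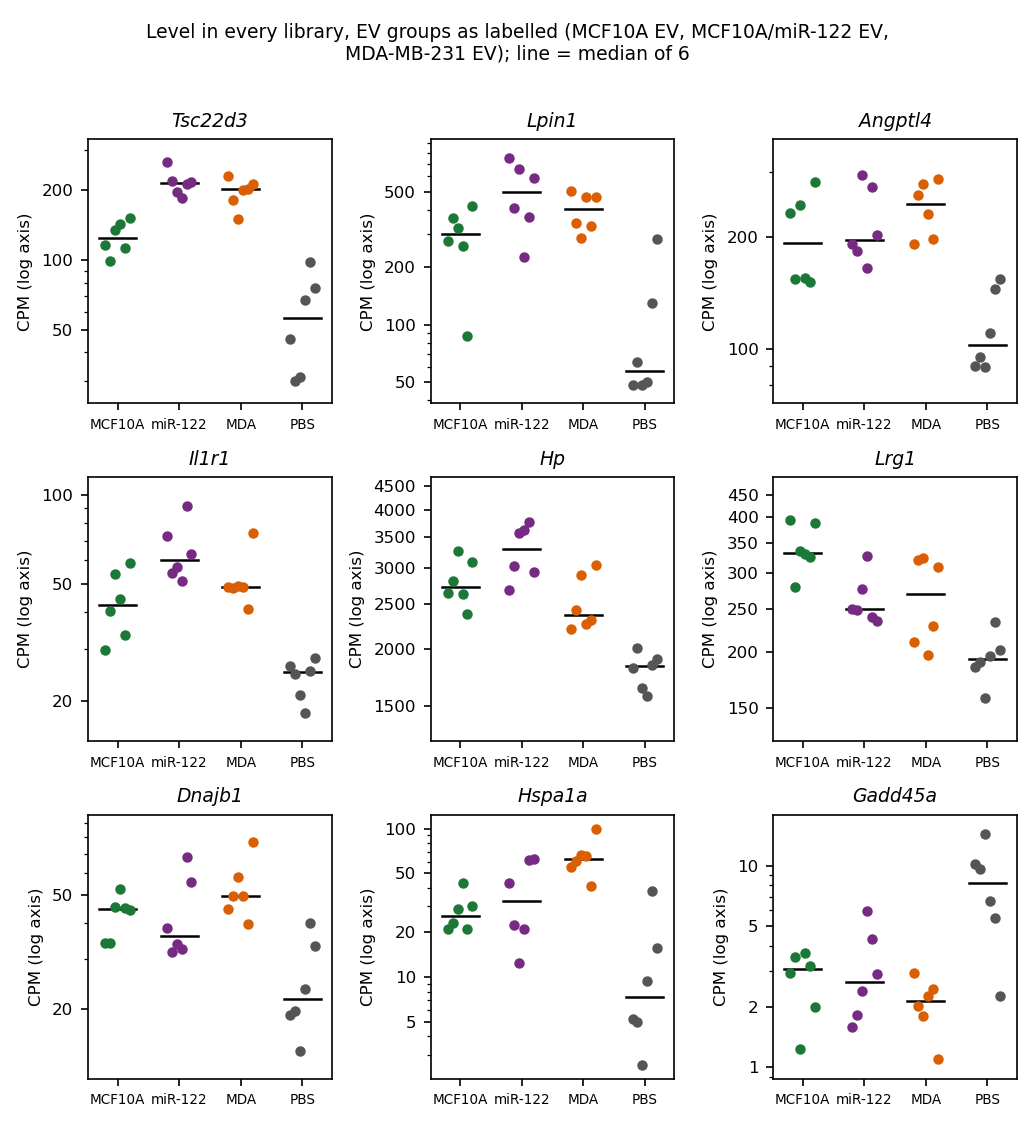
Level of 9 stress genes in every library, in CPM on a log axis, for MCF10A EV, MCF10A/miR-122 EV (marked miR-122), MDA-MB-231 EV (marked MDA) and PBS as labelled, with a line at the median of each 6. The EV livers of Tsc22d3, Il1r1 and Hp lie above all 6 PBS livers, and for Lpin1, Dnajb1 and Hspa1a some PBS livers lie in the range of the EV livers.

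Glucocorticoid-responsive genes had the largest share of members that passed. Of 29 tested, 14 rose with 1 sign in each EV group and none fell, and the median log2 fold change of the list was 0.47, and 0.29 in MCF10A EV livers alone. Tsc22d3, which encodes the glucocorticoid-induced leucine zipper protein, had 99.2, 191 and 266 CPM in EV livers, against 30.1, 56.3 and 98.3 CPM in PBS livers (log2 fold change 1.59, SE 0.19, adjusted p = 4.87e-06). No EV liver overlapped a PBS liver, and MCF10A EV livers alone had 1.12 (adjusted p = 0.0135). Its size differed among the EV groups (adjusted p = 0.0264), with medians of 125 CPM in MCF10A EV livers, 215 CPM in livers labelled MCF10A/miR-122 EV and 203 CPM in livers labelled MDA-MB-231 EV, against 56.3 CPM in PBS livers. Klf15, a transcription factor of amino acid catabolism in fasting, had 124, 228 and 313 CPM in EV livers, against 85.3, 121.7 and 155 CPM in PBS livers (log2 fold change 0.82, SE 0.11, adjusted p = 3.9e-05), and 0.43 (adjusted p = 0.106) in MCF10A EV livers alone. Angptl4, a secreted inhibitor of lipoprotein lipase, had 152, 217 and 294 CPM in EV livers, against 89.4, 103 and 155 CPM in PBS livers (log2 fold change 0.95, SE 0.16, adjusted p = 0.000403). Its log2 fold changes of 0.83 in MCF10A EV livers, 0.94 with the label MCF10A/miR-122 EV and 1.08 with the label MDA-MB-231 EV did not differ past the test (adjusted p = 0.628).

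Of the list's enzymes, some rose and others did not pass. G6pc, the glucose-6-phosphatase of gluconeogenesis, had a higher value that did not pass (log2 fold change 0.83, SE 0.33, adjusted p = 0.0976), as did the tryptophan dioxygenase gene Tdo2 (log2 fold change 0.26, SE 0.14, adjusted p = 0.213) and the aspartate aminotransferase gene Got1 (log2 fold change 0.22, SE 0.16, adjusted p = 0.379). Tat, tyrosine aminotransferase, had 841, 2165 and 3824 CPM in EV livers, against 497, 949 and 1673 CPM in PBS livers (log2 fold change 1.08, SE 0.20, adjusted p = 0.00127), but only 0.36 (adjusted p = 0.434) in MCF10A EV livers. Pck1, the cytosolic phosphoenolpyruvate carboxykinase of gluconeogenesis, had 898, 3753 and 5647 CPM in EV livers, against 785, 1632 and 2648 CPM in PBS livers (log2 fold change 1.09, SE 0.24, adjusted p = 0.00417). In MCF10A EV livers alone Pck1 had 0.69 (adjusted p = 0.196), and its lowest EV liver was MCF10A EV replicate 5. Ppargc1a, the transcriptional coactivator PGC-1 alpha, had 5.59, 16 and 35.5 CPM in EV livers, against 7.45, 7.81 and 12.2 CPM in PBS livers (log2 fold change 1.01, SE 0.25, adjusted p = 0.0101). Lpin1, a phosphatidate phosphatase of triglyceride synthesis, had 87.4, 366 and 753 CPM in EV livers, against 48.1, 56.7 and 281 CPM in PBS livers (log2 fold change 1.90, SE 0.36, adjusted p = 0.00148). Most EV livers were far above the PBS median, but PBS replicates 5 and 6, at 129.7 and 281 CPM, lay in the EV range, and MCF10A EV replicate 5, at 87.4 CPM, lay in the PBS range. The MCF10A EV values of Ppargc1a and Lpin1 were 0.66 and 1.48 (adjusted p = 0.243 and 0.0657). Igfbp1, an insulin-like growth factor binding protein, had 19.4, 97.8 and 724 CPM in EV livers, against 20, 33.1 and 78.7 CPM in PBS livers (log2 fold change 1.75, SE 0.57, adjusted p = 0.0422). In MCF10A EV livers alone Igfbp1 had 1.02 (adjusted p = 0.41). Igfbp1 passed in 13 of the 24 fits that left out 1 library, with an adjusted p of up to 0.104 without PBS replicate 1. Zbtb16, a zinc finger transcription factor, had 10.6, 29.9 and 65.7 CPM in EV livers, against 3.35, 4.31 and 43.3 CPM in PBS livers (log2 fold change 1.74, SE 0.52, adjusted p = 0.0286), where PBS replicate 5 alone, at 43.3 CPM, reached the EV range. Zbtb16 passed in 19 of the 24 fits that left out 1 library, with an adjusted p of up to 0.074 without PBS replicate 1. Without PBS replicate 5 its log2 fold change was 3.01 (adjusted p = 9.83e-05). The MCF10A EV value of Zbtb16 was 1.76 (adjusted p = 0.131). Per1, a clock repressor that glucocorticoids also induce, had 8.93, 53.1 and 94.8 CPM in EV livers, against 3.56, 9.95 and 39.8 CPM in PBS livers (log2 fold change 1.46, SE 0.36, adjusted p = 0.0096), and 0.36 (adjusted p = 0.682) in MCF10A EV livers alone.

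Not all genes tied to the hormone passed. Fkbp5, a co-chaperone that limits the receptor and a commonly used target, had 37.3, 97.6 and 150.3 CPM in EV livers, against 60.7, 67.6 and 114 CPM in PBS livers (log2 fold change 0.34, SE 0.19, adjusted p = 0.244). The receptor gene itself, Nr3c1, had 53, 70.2 and 80.6 CPM in EV livers, against 57.6, 76.6 and 85.8 CPM in PBS livers (log2 fold change -0.16, SE 0.08, adjusted p = 0.171). Hsd11b1, the enzyme that regenerates active glucocorticoid in hepatocytes, had 623, 714 and 969 CPM in EV livers, against 572, 632 and 671 CPM in PBS livers (log2 fold change 0.21, SE 0.07, adjusted p = 0.0482). Hsd11b1 passed in 5 of the 24 fits that left out 1 library, with an adjusted p of up to 0.128 without PBS replicate 3. Errfi1, a feedback inhibitor of the epidermal growth factor receptor, was higher by 0.91 on the log2 scale (adjusted p = 0.0194). Errfi1 did not pass without PBS replicate 1 (adjusted p = 0.0594), without PBS replicate 2 (adjusted p = 0.0531) or without PBS replicate 3 (adjusted p = 0.0514). The count of 14 for the list became 8 without PBS replicate 1 or 2, 9 without PBS replicate 3 or 4 and 15 without PBS replicate 5. RefSeq gives 3 upstream windows of 250 bases for Tsc22d3, which rose in each EV group, and 1 of them holds the receptor hexamer AGAACA. That window is shown, from RefSeq (GRCm38.p6, chrX:140600523-140600772, minus strand, 5′ to 3′). The capitals mark the match to the hexamer, which is bound by a single receptor molecule, here read as TGTTCT on the other strand.
Tsc22d3: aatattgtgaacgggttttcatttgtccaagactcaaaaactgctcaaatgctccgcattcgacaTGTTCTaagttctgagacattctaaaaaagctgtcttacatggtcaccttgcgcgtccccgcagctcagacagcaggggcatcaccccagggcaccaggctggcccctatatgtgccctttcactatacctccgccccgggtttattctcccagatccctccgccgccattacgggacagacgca
The motif was searched on both strands and ends 179 bases before the start. Counting a member when any of its windows held it, it was found for 2 of 11 members that rose and had a window, for 1 of the 9 others, and in 16.1% of all 32851 promoter windows. Counted per gene in the same way, 18.2% of all genes with a window held it. The palindrome GNACANNNTGTNC, bound by a receptor pair, which can overlap an AGAACA match, was in 0 of the 11, 1 of the 9 and 0.387% of all windows (0.44% of all genes with a window). Sequence outside the 250 bases was not searched, so these counts cannot tell whether a member has a site elsewhere.

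Acute phase genes had the next largest share and the largest number that rose. Of 46 tested, 18 rose and 1, Tifa, fell with 1 sign in each EV group, and the median log2 fold change was 0.20, and 0.24 in MCF10A EV livers alone, where 5 rose and 1 fell past the test. The members that rose include the receptors Il1r1 and Il6ra, the transcription factors Cebpb and Cebpd, and plasma proteins secreted by hepatocytes. Il6ra, the binding subunit of the interleukin 6 receptor, had 10.2, 34.5 and 69.8 CPM in EV livers, against 21.1, 22.1 and 26.8 CPM in PBS livers (log2 fold change 0.70, SE 0.21, adjusted p = 0.0312). In MCF10A EV livers alone Il6ra had 0.29 (adjusted p = 0.574). Il6ra passed in 19 of the 24 fits that left out 1 library, with an adjusted p of up to 0.0793 without PBS replicate 1. Cebpd had 3.92, 5.82 and 9.39 CPM in EV livers, against 2.23, 3.28 and 5.61 CPM in PBS livers (log2 fold change 0.77, SE 0.15, adjusted p = 0.00208). Cebpb had 40.1, 69 and 153 CPM in EV livers, against 19.7, 36.9 and 61.1 CPM in PBS livers (log2 fold change 0.99, SE 0.21, adjusted p = 0.0039). Every EV liver was above the PBS median for both factors, and the ranges overlapped. The MCF10A EV values of Cebpd and Cebpb were 0.53 and 0.67 (adjusted p = 0.145 and 0.171). Nfkbia, the inhibitor of NF-kappaB that NF-kappaB itself induces, had 28.6, 46.6 and 66.9 CPM in EV livers, against 26, 32.4 and 36.4 CPM in PBS livers (log2 fold change 0.54, SE 0.12, adjusted p = 0.00381). In MCF10A EV livers it had 0.16 (adjusted p = 0.579).

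Among the secreted proteins, Saa4, a constitutive serum amyloid A carried on lipoproteins, had 174, 226 and 290.3 CPM in EV livers, against 137, 159.8 and 174 CPM in PBS livers (log2 fold change 0.49, SE 0.07, adjusted p = 0.000177), with all 18 EV livers above all PBS livers. Lcn2, the siderophore-binding lipocalin 2, had 8.41, 21.7 and 50.7 CPM in EV livers, against 5.94, 8.27 and 12.1 CPM in PBS livers (log2 fold change 1.19, SE 0.20, adjusted p = 0.000405). The size differed among the EV groups (adjusted p = 0.000227), with medians of 21.8 CPM in MCF10A EV livers, 29.1 CPM in livers labelled MCF10A/miR-122 EV and 10.1 CPM in livers labelled MDA-MB-231 EV, against 8.27 CPM in PBS livers. Orm1, alpha-1-acid glycoprotein, had 536, 763 and 1102 CPM in EV livers, against 399.7, 517 and 687 CPM in PBS livers (log2 fold change 0.52, SE 0.11, adjusted p = 0.00395). The MCF10A EV values of Saa4, Lcn2 and Orm1 were 0.27, 1.23 and 0.40 (adjusted p = 0.129, 0.0131 and 0.137). The inducible serum amyloids Saa1 and Saa2 passed in the pooled comparison, but their values rest on 1 group. Saa1 had medians of 37.3 CPM in MCF10A EV livers, 552 CPM in livers labelled MCF10A/miR-122 EV and 33 CPM in livers labelled MDA-MB-231 EV, against 24.1 CPM in PBS livers, and Saa2 had medians of 21.7 CPM in MCF10A EV livers, 331 CPM in livers labelled MCF10A/miR-122 EV and 18.9 CPM in livers labelled MDA-MB-231 EV, against 15.2 CPM in PBS livers (adjusted p among EV groups = 8.61e-11 for Saa1 and 8.06e-09 for Saa2). The macrophage and Kupffer cell markers, none of them at 0, also had their highest median sum with the label MCF10A/miR-122 EV, in overlapping ranges of 308 to 379 CPM in MCF10A EV livers, 346 to 799 CPM in livers labelled MCF10A/miR-122 EV and 278 to 416 CPM in livers labelled MDA-MB-231 EV, against 324 to 425 CPM in PBS livers, and their part in the Saa1, Saa2 and Lcn2 values was not tested. Reads of Saa1, Saa2, Orm1 and Orm2 are uncertain, since 46.2%, 45.5%, 27.2% and 33.3% of their 32-base words also occur in another gene. Orm2 was higher by 0.75 on the log2 scale (adjusted p = 0.00429). The STAT3 motif TTCCNGGAA was in the upstream windows of 0 of 14 members that passed and 2 of 21 others, against 0.913% of all windows and 1.09% of all genes with a window. The C/EBP motif TTGCGCAA was in those of 1 of the 14, Orm2, and 0 of the 21, against 0.164% of all windows and 0.185% of all genes with a window.

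The heat shock list held 9 members that rose and none that fell, of 39 tested, with a median log2 fold change of 0.20, and 0.28 in MCF10A EV livers alone, where none passed. The inducible cytosolic chaperones of the HSP70 family led by size. Hspa1a had 12.4, 41.8 and 99.3 CPM in EV livers, against 2.58, 7.33 and 38.3 CPM in PBS livers (log2 fold change 1.69, SE 0.41, adjusted p = 0.00954), and MCF10A EV livers alone had 1.15 (adjusted p = 0.205). Every EV liver was above the PBS median, but 10 of 18 were above PBS replicate 5, at 38.3 CPM. Hspa1b had 15.5, 47.2 and 127 CPM in EV livers, against 3.17, 8.54 and 46.9 CPM in PBS livers (log2 fold change 1.67, SE 0.42, adjusted p = 0.0107). The 2 genes share 65.2% and 67.7% of their 32-base words with other genes, and are known as near-identical copies, so their counts are not separate evidence. Their upstream 250 bases are shown because they show how alike the pair is, also outside the transcript: they are from RefSeq (GRCm38.p6, chr17:34972157-34972406 and chr17:34959239-34959488, both minus strand, 5′ to 3′), and capitals mark the match to a pair of heat shock element units.
Hspa1a: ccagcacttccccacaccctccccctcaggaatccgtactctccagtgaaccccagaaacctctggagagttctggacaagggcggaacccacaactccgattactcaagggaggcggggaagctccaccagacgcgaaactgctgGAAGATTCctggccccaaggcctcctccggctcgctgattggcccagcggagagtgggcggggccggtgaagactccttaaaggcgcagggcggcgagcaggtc
Hspa1b: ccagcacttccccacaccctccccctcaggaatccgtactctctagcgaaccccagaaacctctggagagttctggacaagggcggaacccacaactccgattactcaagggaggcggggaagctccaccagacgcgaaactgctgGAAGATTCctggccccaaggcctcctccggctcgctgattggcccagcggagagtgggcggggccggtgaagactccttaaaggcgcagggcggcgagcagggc
The windows differ in 3 of 250 bases, and the marked motif ends 96 bases before the start in both. The motif, GAANNTTC or TTCNNGAA on either strand, was in the windows of 3 of 8 members that rose and had a window, of 9 of the 23 others, and in 12.8% of all windows (14.5% of all genes with a window). Its form with a further unit, GAANNTTCNNGAA or TTCNNGAANNTTC, which contains the shorter one, was in 0 of the 8, 1 of the 23 and 0.466% of all windows (0.514% of all genes with a window).

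Other chaperones and co-chaperones of the list rose as well. Dnajb1, the HSP40 partner of HSP70, had 31.7, 44.9 and 76.7 CPM in EV livers, against 14.2, 21.6 and 40 CPM in PBS livers (log2 fold change 0.89, SE 0.19, adjusted p = 0.00386), and 0.77 (adjusted p = 0.0838) in MCF10A EV livers alone. Dnajb4, another HSP40, had 30.1, 42.6 and 59.1 CPM in EV livers, against 21.8, 24.2 and 37.7 CPM in PBS livers (log2 fold change 0.68, SE 0.11, adjusted p = 0.000415). Hspa2, an HSP70 known chiefly from the testis, had 1.1, 2.98 and 5.16 CPM in EV livers, against 1.1, 1.42 and 1.76 CPM in PBS livers (log2 fold change 1.09, SE 0.17, adjusted p = 0.000151), with 17 EV livers above and 1 below every PBS liver. Hspb8, a small heat shock protein of chaperone-assisted autophagy, had 179, 213 and 243 CPM in EV livers, against 138, 154 and 210.5 CPM in PBS livers (log2 fold change 0.36, SE 0.08, adjusted p = 0.00347). Its log2 fold changes of 0.34, 0.34 and 0.39 in the 3 EV groups lay close together. Hsf1, the master regulator of the list, had 11, 13.3 and 19.5 CPM in EV livers, against 9.06, 11.6 and 12.6 CPM in PBS livers (log2 fold change 0.31, SE 0.10, adjusted p = 0.0363). Hsf1 passed in 18 of the 24 fits that left out 1 library, with an adjusted p of up to 0.116 without PBS replicate 3. Hsf2, a related factor, was higher by 0.38 on the log2 scale (adjusted p = 0.027). Hsf2 did not pass without PBS replicate 1 (adjusted p = 0.0757), without PBS replicate 4 (adjusted p = 0.0677) or without PBS replicate 3 (adjusted p = 0.0663). The constitutive Hspa8, with a shared sequence of 59%, had 885, 1365 and 1808 CPM in EV livers, against 754, 883 and 1705 CPM in PBS livers (log2 fold change 0.42, SE 0.14, adjusted p = 0.0505). The count of 9 for the list became 18 without PBS replicate 5, which was the highest PBS liver for Hspa1a, Dnajb1 and Hspa8.

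The unfolded protein response list held 5 members that rose and none that fell, of 40 tested (median log2 fold change 0.11, and 0.19 in MCF10A EV livers). The share that rose was 12.5%, against 5.21% of all genes. Herpud1, a component of ER-associated degradation, had 174, 499.6 and 666 CPM in EV livers, against 193, 248 and 279 CPM in PBS livers (log2 fold change 0.91, SE 0.13, adjusted p = 7.19e-05), and 0.40 (adjusted p = 0.182) in MCF10A EV livers alone. It had the largest log2 fold change of the 5, and its size differed among the EV groups (adjusted p = 0.00127). The ER proteins of the thioredoxin fold P4hb and Txndc11 had log2 fold changes of 0.20 (adjusted p = 0.0248) and 0.37 (adjusted p = 0.0339). P4hb passed in 20 of the 24 fits that left out 1 library, with an adjusted p of up to 0.0898 without PBS replicate 1. Txndc11 passed in 19 of the 24 fits that left out 1 library, with an adjusted p of up to 0.108 without PBS replicate 1. Ppib, an ER cyclophilin, and Derl2, a derlin of ER-associated degradation, had 0.22 (adjusted p = 0.0393) and 0.19 (adjusted p = 0.0473). Ppib passed in 17 of the 24 fits that left out 1 library, with an adjusted p of up to 0.125 without PBS replicate 1. Derl2 passed in 6 of the 24 fits that left out 1 library, with an adjusted p of up to 0.141 without PBS replicate 1. The master chaperone Hspa5, known as BiP, had 502, 663 and 907 CPM in EV livers, against 413, 498 and 1018 CPM in PBS livers (log2 fold change 0.21, SE 0.12, adjusted p = 0.287), where the highest PBS liver was replicate 5. Hspa5 passed in 1 of the 24 fits that left out 1 library (adjusted p = 0.000483), with log2 fold changes of 0.13 to 0.45 over these fits. Its log2 fold changes were 0.43 in MCF10A EV livers, -0.0094 with the label MCF10A/miR-122 EV and 0.20 with MDA-MB-231 EV. Xbp1, the transcription factor of the pathway, had 143, 163 and 265 CPM in EV livers, against 159, 179 and 207 CPM in PBS livers (log2 fold change -0.02, SE 0.08, adjusted p = 0.879), with 0.31 in MCF10A EV livers and -0.19 and -0.19 in the other EV groups. The count of 5 became 1 without PBS replicate 1, 4 or 6, 2 without PBS replicate 2, 3 without PBS replicate 3 and 13 without PBS replicate 5, and 3 without MCF10A EV replicate 4 or 5 or MDA-MB-231 EV replicate 2. The ER stress response element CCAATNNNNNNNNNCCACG was in the upstream windows of 0 of the 5 and 9 of 28 other members, against 0.113% of all windows and 0.13% of all genes with a window.

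Of 37 integrated stress response genes, 3 rose (Ddit4, Cebpb and Eif4ebp3) and 1, Slc7a11, fell, with a median log2 fold change of 0.01. These shares of 8.11% and 2.7% stand against 5.21% and 6.24% of all genes. Slc7a11, the cystine transporter, had 2.94, 3.63 and 7.38 CPM in EV livers, against 5.54, 7.1 and 8.51 CPM in PBS livers (log2 fold change -0.72, SE 0.08, adjusted p = 4.87e-06). The groups had medians of 6.1 CPM in MCF10A EV livers, 3.42 CPM in livers labelled MCF10A/miR-122 EV and 3.37 CPM in livers labelled MDA-MB-231 EV, against 7.1 CPM in PBS livers, and the MCF10A EV value was -0.14 (adjusted p = 0.51). Eif4ebp3, a 4E-BP family inhibitor of translation initiation, had 13.9, 25 and 40 CPM in EV livers, against 9.1, 11.5 and 27 CPM in PBS livers (log2 fold change 0.86, SE 0.21, adjusted p = 0.00984), and 1.03 (adjusted p = 0.0397) in MCF10A EV livers alone. It shares 66.3% of its 32-base words with other genes and is uncertain. Ddit4, an inhibitor of mTORC1 that glucocorticoids also raise, had 3.89, 6.99 and 47.8 CPM in EV livers, against 2.47, 3.74 and 6.92 CPM in PBS livers (log2 fold change 1.23, SE 0.35, adjusted p = 0.021). In MCF10A EV livers alone Ddit4 had 0.39 (adjusted p = 0.649). Ddit4 did not pass without PBS replicate 3 (adjusted p = 0.0595), without PBS replicate 1 (adjusted p = 0.0564) or without PBS replicate 2 (adjusted p = 0.0546). Atf4, the central factor of the response, had 60.2, 71.3 and 88.2 CPM in EV livers, against 60.7, 70.7 and 77.7 CPM in PBS livers (log2 fold change 0.03, SE 0.07, adjusted p = 0.833). Ddit3, its pro-apoptotic target CHOP, had 0.45 (adjusted p = 0.0888).

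The p53 and NRF2 lists were near the shares over all genes. Of 35 genes of p53 and growth arrest, 1 rose and 2 fell. Bbc3, which encodes the pro-apoptotic protein PUMA, had 2.59, 4.38 and 8.09 CPM in EV livers, against 3.79, 8.11 and 9.67 CPM in PBS livers (log2 fold change -0.76, SE 0.15, adjusted p = 0.00219), and -0.29 (adjusted p = 0.449) in MCF10A EV livers alone. Trp53inp1, a p53-induced autophagy factor, had 53.4, 96.7 and 198 CPM in EV livers, against 45.4, 63.9 and 79.4 CPM in PBS livers (log2 fold change 0.68, SE 0.16, adjusted p = 0.00602), and 0.16 (adjusted p = 0.702) in MCF10A EV livers alone. Cdkn1a, the p53 target p21, had a log2 fold change of 1.71 in MCF10A EV livers (adjusted p = 0.135). It was -0.52 with the label MCF10A/miR-122 EV and -0.82 with MDA-MB-231 EV (adjusted p = 0.571 and 0.386), so no group passed against PBS. The medians were 24 CPM in MCF10A EV livers, 5.89 CPM in livers labelled MCF10A/miR-122 EV and 4.85 CPM in livers labelled MDA-MB-231 EV, against 4.8 CPM in PBS livers (pooled adjusted p = 0.894, adjusted p among EV groups = 0.00368). No EV median was thus below that of PBS, where the highest liver had 34.4 CPM. Of 51 NRF2 antioxidant genes, none rose and 3 fell with 1 sign in each EV group. Srxn1, sulfiredoxin, had 14.8, 20 and 27.8 CPM in EV livers, against 20.3, 26.7 and 36.2 CPM in PBS livers (log2 fold change -0.45, SE 0.11, adjusted p = 0.00955). Osgin1, an oxidative stress-induced growth inhibitor, had -0.70 (adjusted p = 0.0476), and Keap1, the repressor of NRF2, -0.14 (adjusted p = 0.0373). Osgin1 passed in 11 of the 24 fits that left out 1 library, with an adjusted p of up to 0.12 without PBS replicate 2. Keap1 passed in 18 of the 24 fits that left out 1 library, with an adjusted p of up to 0.103 without PBS replicate 2. The classical target Hmox1, heme oxygenase 1, had 16.7, 25.4 and 48.9 CPM in EV livers, against 19.6, 30.3 and 45.6 CPM in PBS livers (log2 fold change -0.21, SE 0.17, adjusted p = 0.455), and Gclc, of glutathione synthesis, had -0.17 (adjusted p = 0.153). The p53 count of 3 became 7 without PBS replicate 5 or 6, 6 without MCF10A/miR-122 EV replicate 4, and 5 without PBS replicate 2, MCF10A EV replicate 5 or MCF10A/miR-122 EV replicate 5. The NRF2 count of 3 became 1 without PBS replicate 4, MCF10A EV replicate 6 or MDA-MB-231 EV replicate 4, and 5 without MCF10A EV replicate 3.

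Of 27 immediate early genes, 4 rose (14.8%, against 5.21% of all genes) and none fell. Ctgf, a matricellular growth factor, had 2.67, 8.89 and 22.9 CPM in EV livers, against 2.18, 3.24 and 7.4 CPM in PBS livers (log2 fold change 1.47, SE 0.31, adjusted p = 0.00333). Nr4a2, an orphan nuclear receptor, had 0.254, 0.679 and 1.19 CPM in EV livers, against 0.184, 0.26 and 0.558 CPM in PBS livers (log2 fold change 1.06, SE 0.28, adjusted p = 0.0132). Dusp6, a phosphatase of ERK, had 0.49 (adjusted p = 0.0232), and the kinase gene Pim3 0.58 (adjusted p = 0.0477). Dusp6 did not pass without PBS replicate 3 (adjusted p = 0.0763), without PBS replicate 6 (adjusted p = 0.063) or without PBS replicate 4 (adjusted p = 0.056). Pim3 passed in 7 of the 24 fits that left out 1 library, with an adjusted p of up to 0.149 without PBS replicate 1. In MCF10A EV livers alone Ctgf, Nr4a2, Dusp6 and Pim3 had 0.93, 0.83, 0.28 and 0.10 (adjusted p = 0.184, 0.198, 0.386 and 0.85). The list's name genes did not pass: Fos had 0.461, 1.66 and 11.2 CPM in EV livers, against 0.595, 1.02 and 2.96 CPM in PBS livers (log2 fold change 1.08, SE 0.56, adjusted p = 0.208), and Egr1 2.81, 6.11 and 32.6 CPM in EV livers, against 6.1, 13.7 and 28.5 CPM in PBS livers (log2 fold change -0.82, SE 0.38, adjusted p = 0.162). Of 31 hypoxia genes, 3 rose and 2 fell (9.68% and 6.45%, against 5.21% and 6.24% of all genes). Pfkfb3, a regulator of glycolysis, had 4.18, 18.5 and 27.1 CPM in EV livers, against 3.6, 4.31 and 11.9 CPM in PBS livers (log2 fold change 1.45, SE 0.21, adjusted p = 0.000109). P4ha1, a collagen prolyl hydroxylase, had 12.8, 22.8 and 49.4 CPM in EV livers, against 8.14, 10 and 20.9 CPM in PBS livers (log2 fold change 1.15, SE 0.23, adjusted p = 0.00226). Hif3a, the HIF-3 alpha subunit, was near the limit of detection, with 0.0419, 0.246 and 0.75 CPM in EV livers, against 0, 0.0795 and 0.112 CPM in PBS livers (log2 fold change 2.06, SE 0.54, adjusted p = 0.0132). Slc2a1, the glucose transporter GLUT1 and a HIF target, fell (5.63, 7.59 and 10.5 CPM in EV livers, against 8.14, 10.9 and 11.4 CPM in PBS livers, log2 fold change -0.39, SE 0.11, adjusted p = 0.0223). Slc2a1 did not pass without PBS replicate 4 (adjusted p = 0.0599) or without PBS replicate 1 (adjusted p = 0.0551). The MCF10A EV values of Pfkfb3, P4ha1, Hif3a and Slc2a1 were 0.48, 0.85, 1.71 and -0.29 (adjusted p = 0.326, 0.116, 0.182 and 0.281). The immediate early count of 4 became 2 without PBS replicate 3 or 4, and the hypoxia count of 5 became 3 without PBS replicate 1 or 4.

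In the remaining lists few genes passed, and over all genes 5.21% rose and 6.24% fell with 1 sign. The shares that rose were 10.7% for autophagy and 4% for innate immune stress signalling. Those that fell were 12% for innate immune stress signalling, 9.09% for the metal response and 6.25% for the mitochondrial unfolded protein response. Of 28 autophagy genes 3 rose: Foxo1, a transcription factor of fasting, by 0.63 on the log2 scale (adjusted p = 0.0241), the initiating kinase gene Ulk1 by 0.31 (adjusted p = 0.0263) and Atg14 by 0.31 (adjusted p = 0.0201). Foxo1 passed in 20 of the 24 fits that left out 1 library, with an adjusted p of up to 0.0697 without PBS replicate 4. Ulk1 passed in 20 of the 24 fits that left out 1 library, with an adjusted p of up to 0.0883 without PBS replicate 1. Atg14 did not pass without PBS replicate 1 (adjusted p = 0.0687) or without PBS replicate 4 (adjusted p = 0.0529). In MCF10A EV livers alone Foxo1, Ulk1 and Atg14 had 0.52, 0.10 and 0.098 (adjusted p = 0.211, 0.671 and 0.658). Of 25 genes of innate immune stress signalling, 1 rose and 3 fell. Tnfrsf1b, the receptor 2 of tumor necrosis factor, had 20.5, 40.8 and 83.4 CPM in EV livers, against 14.4, 20.2 and 36.7 CPM in PBS livers (log2 fold change 0.97, SE 0.19, adjusted p = 0.00194), and 0.55 (adjusted p = 0.204) in MCF10A EV livers alone. Tnfaip2, a gene induced by that cytokine, had 7.4, 12.3 and 38.6 CPM in EV livers, against 15.4, 28.2 and 39.9 CPM in PBS livers (log2 fold change -1.01, SE 0.18, adjusted p = 0.000628), and -0.36 (adjusted p = 0.414) in MCF10A EV livers alone. Cxcl10, an interferon-induced chemokine, had 0.898, 1.96 and 6.2 CPM in EV livers, against 2.94, 3.94 and 6.22 CPM in PBS livers (log2 fold change -0.96, SE 0.22, adjusted p = 0.00523). Tlr2, a receptor of bacterial lipopeptides, had -0.57 (adjusted p = 0.0129). Tlr2 did not pass without PBS replicate 3 (adjusted p = 0.0509). Of 11 metal response genes, only the zinc exporter Slc30a1 passed, and it fell (25, 39.6 and 47.7 CPM in EV livers, against 37.5, 54 and 64.2 CPM in PBS livers, log2 fold change -0.41, SE 0.08, adjusted p = 0.00305). The metallothioneins Mt1 and Mt2 had -0.70 (adjusted p = 0.201) and -0.63 (adjusted p = 0.284). Of 16 genes of the mitochondrial unfolded protein response, Timm17a, of the inner membrane translocase, fell with 1 sign (4.24, 6.27 and 8.14 CPM in EV livers, against 7.71, 8.92 and 10.1 CPM in PBS livers, log2 fold change -0.49, SE 0.08, adjusted p = 0.000395), and 16 of 18 EV livers were below every PBS liver. The autophagy count of 3 became 0 without PBS replicate 1 or 4, and the metal response count of 1 became 2 without PBS replicate 5 or 6.

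**Figure D3:**
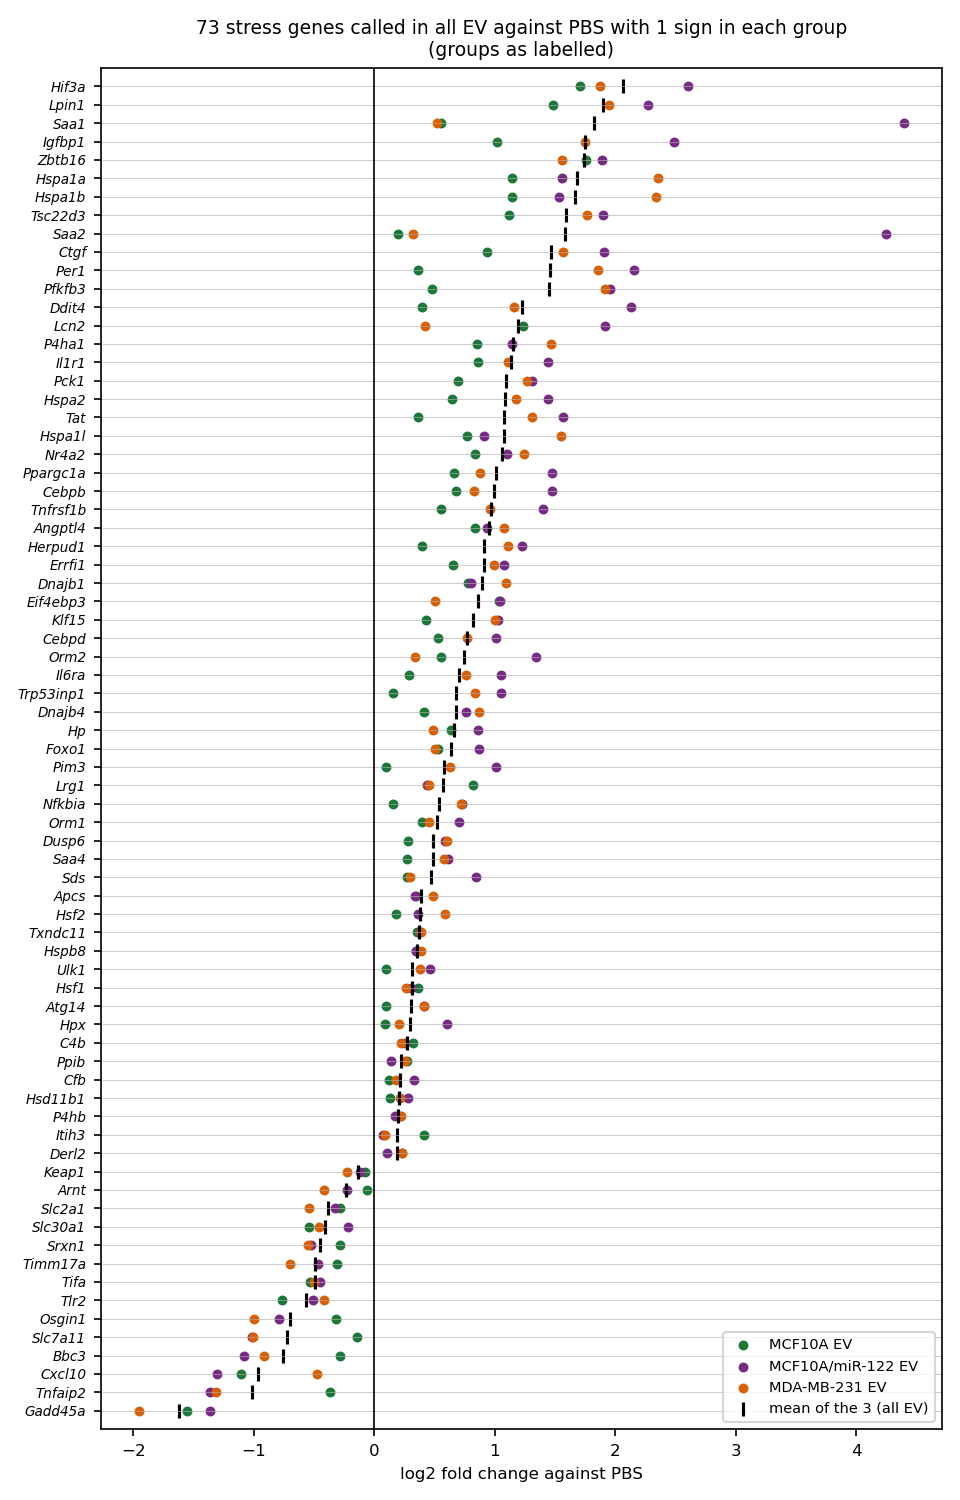
The log2 fold change against PBS of each of the 73 stress genes that passed with 1 sign, in the 3 EV groups as labelled (coloured points) and as their mean (black mark). Each gene's points lie on 1 side of 0 by the rule that chose them, and the MCF10A/miR-122 EV points of Saa1 and Saa2 lie farthest from the others, at 4.39 and 4.25.

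The 3 EV groups differed in size for 29 of these 73 genes in the test among EV groups, in which PBS has no part. Over all genes, 395 of the 1577 that passed with 1 sign differed among EV groups (25%), and 1825 of all 13773 did (13.3%). Per1, Pfkfb3 and Tat, for example, had log2 fold changes of 0.36, 0.48 and 0.36 in MCF10A EV livers but 2.15, 1.96 and 1.56 with the label MCF10A/miR-122 EV, and 1.86, 1.91 and 1.31 with MDA-MB-231 EV (adjusted p = 0.0104, 0.000227 and 0.0029). In this pattern the step lies between the 2 sets of libraries, so set and EV source cannot be told apart.

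Outside the stress lists, the EV livers shared further changes. All 18 EV livers lay above all PBS livers for 13 genes (0.0944%) and below them for 10 genes (0.0726%). Rfx5, a transcription factor of MHC class II genes, had 5.82, 7.8 and 11 CPM in EV livers, against 12.1, 14.1 and 16.7 CPM in PBS livers (log2 fold change -0.84, SE 0.09, adjusted p = 8.79e-07). Rab11fip4, an effector of the recycling GTPase Rab11, had 0.915, 2.03 and 2.74 CPM in EV livers, against 2.84, 4.36 and 5.34 CPM in PBS livers (log2 fold change -1.11, SE 0.17, adjusted p = 0.000223). Among those above were Ip6k2, an inositol hexakisphosphate kinase, with 31.2, 41.6 and 77.1 CPM in EV livers, against 14, 21.2 and 26.5 CPM in PBS livers (log2 fold change 1.04, SE 0.14, adjusted p = 3.66e-05), the kinase gene Mast3 (0.87, adjusted p = 6.12e-05) and the transcription factor gene Deaf1 (0.51, adjusted p = 5.65e-05). All 5 also passed in each EV group, and Rfx5, Ip6k2, Mast3 and Deaf1 were chosen after their values were seen. Id2, an inhibitor of DNA binding also chosen after its values were seen, had 64.3, 81.2 and 112 CPM in EV livers, against 111, 152 and 169 CPM in PBS livers (log2 fold change -0.78, SE 0.10, adjusted p = 2.03e-05), and 17 EV livers lay below every PBS liver. Cd274, the immune checkpoint ligand PD-L1, had 0.942, 1.41 and 2.51 CPM in EV livers, against 2.18, 3.31 and 3.94 CPM in PBS livers (log2 fold change -1.08, SE 0.15, adjusted p = 3.04e-05), also with 17. Fzd6, a Wnt receptor, had 1.56, 2.74 and 3.96 CPM in EV livers, against 3.05, 7.19 and 10.2 CPM in PBS livers (log2 fold change -1.32, SE 0.15, adjusted p = 4.92e-06).

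The rises largest in size included Ppp1r3g, a glycogen-targeting subunit of protein phosphatase 1, with 0.646, 20.3 and 128 CPM in EV livers, against 0.863, 1.7 and 8.62 CPM in PBS livers (log2 fold change 2.46, SE 0.53, adjusted p = 0.00367). MCF10A EV livers alone had 0.81 (adjusted p = 0.497). Cyp26a1, which degrades retinoic acid, had 2.12, 8.78 and 47.8 CPM in EV livers, against 1.97, 3.12 and 6.79 CPM in PBS livers (log2 fold change 1.79, SE 0.56, adjusted p = 0.0349). Cyp26a1 passed in 19 of the 24 fits that left out 1 library, with an adjusted p of up to 0.0816 without PBS replicate 3. AA986860 had 1.89 (adjusted p = 0.000104) and Sftpa1, surfactant protein A, 1.62 (adjusted p = 0.00194). The falls largest in size were less even. A1bg, a plasma glycoprotein, had 8.08, 56.7 and 276 CPM in EV livers, against 27.1, 95.9 and 2625 CPM in PBS livers (log2 fold change -2.88, SE 0.66, adjusted p = 0.00592), and without PBS replicates 3 and 5 together the log2 fold change was 0.22. A1bg did not pass without PBS replicate 3 (adjusted p = 0.34). Mmd2 had -1.62 (adjusted p = 0.00886), and the interferon-induced GTPase gene Gbp11, with a shared sequence of 33.2%, -1.26 (adjusted p = 0.0171). Mmd2 did not pass without PBS replicate 3 (adjusted p = 0.0944). Without PBS replicate 3 the log2 fold change was -0.95 for A1bg and -1.02 for Mmd2. Gbp11 did not pass without PBS replicate 3 (adjusted p = 0.0805) or without PBS replicate 4 (adjusted p = 0.0514). Dio1, the deiodinase that activates thyroid hormone in liver, had 2.6, 6.93 and 32 CPM in EV livers, against 2.8, 23.9 and 26.2 CPM in PBS livers (log2 fold change -1.16, SE 0.35, adjusted p = 0.0326). Dio1 passed in 20 of the 24 fits that left out 1 library, with an adjusted p of up to 0.0766 without PBS replicate 1. Sybu, a syntaxin-binding protein, had -1.07 (adjusted p = 0.00402). AV051173 and Prdx6b, with -1.52 and -1.03, had -0.05 and -0.05 in MCF10A EV livers. Their pooled falls come from the 2 other EV groups, where EV source and set of libraries cannot be told apart.

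Cell cycle and clock genes were measured beside the stress lists. Of the 34 tested members of the cell cycle list 11 fell with 1 sign (32.4%, against 6.24% of all genes), none rose, and the median log2 fold change was -0.41. The median was -0.79 in MCF10A EV livers, -0.22 with the label MCF10A/miR-122 EV and -0.26 with MDA-MB-231 EV. Past the test 5, 4 and 3 members fell in these groups, against 0.697%, 9.53% and 6.34% of all genes. With the label MCF10A/miR-122 EV 1 member rose, against 8.35% of all genes. Ccnd1, which encodes cyclin D1, had 26, 53.7 and 98.1 CPM in EV livers, against 66.4, 92.1 and 98.6 CPM in PBS livers (log2 fold change -0.67, SE 0.14, adjusted p = 0.00312). Its log2 fold change was -1.27 in MCF10A EV livers (adjusted p = 0.00328). It did not pass with the label MCF10A/miR-122 EV (-0.46, adjusted p = 0.0792) or MDA-MB-231 EV (-0.29, adjusted p = 0.304). Cdc20, which activates the anaphase-promoting complex and has a shared sequence of 26.1%, had 0.199, 0.586 and 1.13 CPM in EV livers, against 0.233, 1.64 and 4.6 CPM in PBS livers (log2 fold change -1.74, SE 0.36, adjusted p = 0.00284), where PBS replicate 3 was the highest. Without PBS replicate 3 the list's count of 11 became 3. Of 20 circadian clock genes, 16 differed among the EV groups, against 13.3% of all genes. With 1 sign 1 of the 20, Per1, rose (5%, against 5.21% of all genes) and none fell. Arntl, the clock activator BMAL1, had medians of 18 CPM in MCF10A EV livers, 2.92 CPM in livers labelled MCF10A/miR-122 EV and 3.62 CPM in livers labelled MDA-MB-231 EV, against 6.19 CPM in PBS livers (pooled log2 fold change -0.98, adjusted p = 0.0289). Npas2, its partner, had medians of 3.96 CPM in MCF10A EV livers, 0.241 CPM in livers labelled MCF10A/miR-122 EV and 0.295 CPM in livers labelled MDA-MB-231 EV, against 0.597 CPM in PBS livers (-1.97, adjusted p = 0.0206), and Per2, a repressor, medians of 17.5 CPM in MCF10A EV livers, 38.6 CPM in livers labelled MCF10A/miR-122 EV and 43.7 CPM in livers labelled MDA-MB-231 EV, against 16.9 CPM in PBS livers (0.91, adjusted p = 0.0164). Arntl did not pass without PBS replicate 5 (adjusted p = 0.251) or without PBS replicate 1 (adjusted p = 0.0936). Npas2 did not pass without PBS replicate 5 (adjusted p = 0.619). Per2 did not pass without PBS replicate 1 (adjusted p = 0.0506). Without PBS replicate 5 the pooled log2 fold change was -0.43 for Arntl and -0.35 for Npas2. The MCF10A EV livers had 13 to 30.2 CPM of Arntl and 1.72 to 12.1 CPM of Npas2. PBS replicate 5, at 29.6 CPM of Arntl and 12.4 CPM of Npas2, and PBS replicate 1, at 16.2 and 2.45 CPM, were at or near these levels, while the other 4 PBS livers had at most 6.28 CPM of Arntl and 0.626 CPM of Npas2. Several of the glucocorticoid genes, Per1 among them, also follow the daily rhythm, and the labels give no time of day at which a liver was taken, so the part of sampling time in these values was not tested. Of the hepatocyte markers, Apoh, beta-2-glycoprotein 1, had 0.28 (adjusted p = 0.00603).

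**Figure D4:**
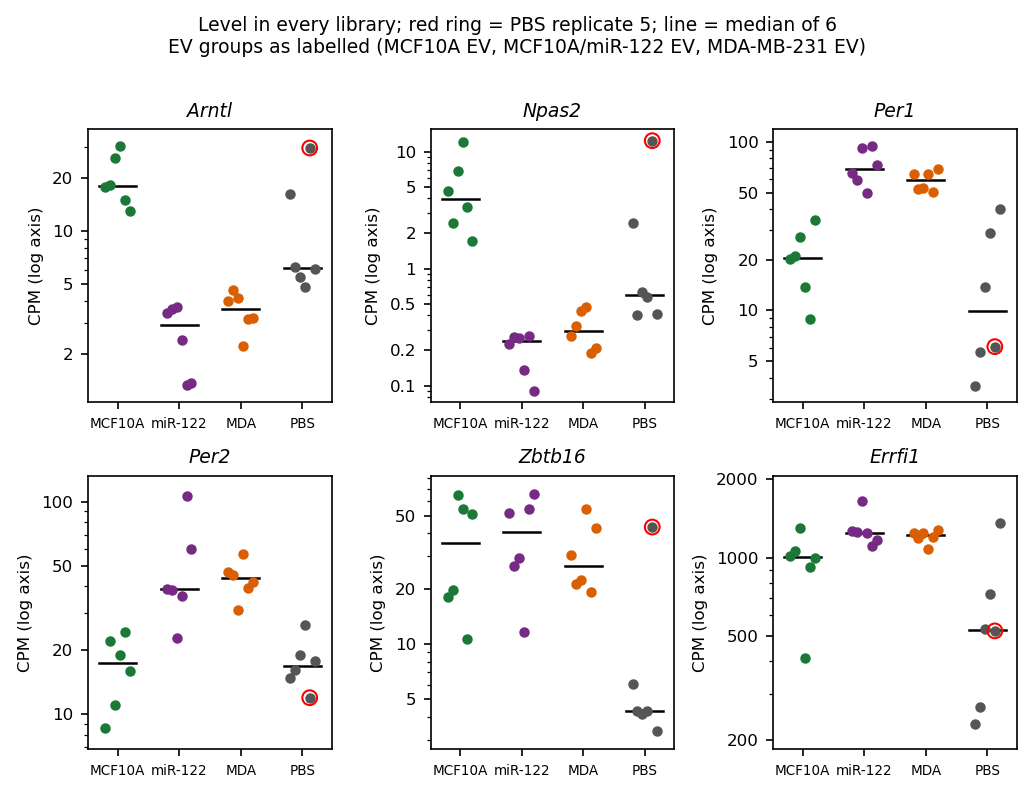
Level of 4 clock genes and of the glucocorticoid-responsive genes Zbtb16 and Errfi1 in every library, in CPM on a log axis, with a line at the median of each 6 and a red ring around PBS replicate 5. Arntl and Npas2 are high in the MCF10A EV livers and in PBS replicates 1 and 5, and low in both other EV groups, and PBS replicate 5 is the highest PBS liver of Zbtb16.

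The count of stress genes depended on single PBS livers more than on single EV livers. It was 73 with all 24 libraries, between 66 and 78 without any 1 EV library, 51 without PBS replicate 1 or 4 and 101 without PBS replicate 5. The PBS side holds fewer libraries than the EV side, so leaving out 1 PBS library removes a larger share of its side. These counts therefore cannot tell whether the PBS livers as such varied more. Of the 73 genes, 46 passed with 1 sign in all 24 fits that left out 1 library, 37 of them higher and 9 lower. Among the 59 that rose, PBS replicate 5 was the highest PBS liver for 24 genes and PBS replicate 6 for 20, against 31% and 31.9% of all 717 genes that rose. MCF10A EV replicate 5 was the lowest of the 6 MCF10A EV livers for 29 of the 59, against 26.9% of the 717. Without PBS replicates 3 and 5 together 72 stress genes passed with 1 sign, 54 of them among the 73.

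**Figure D5:**
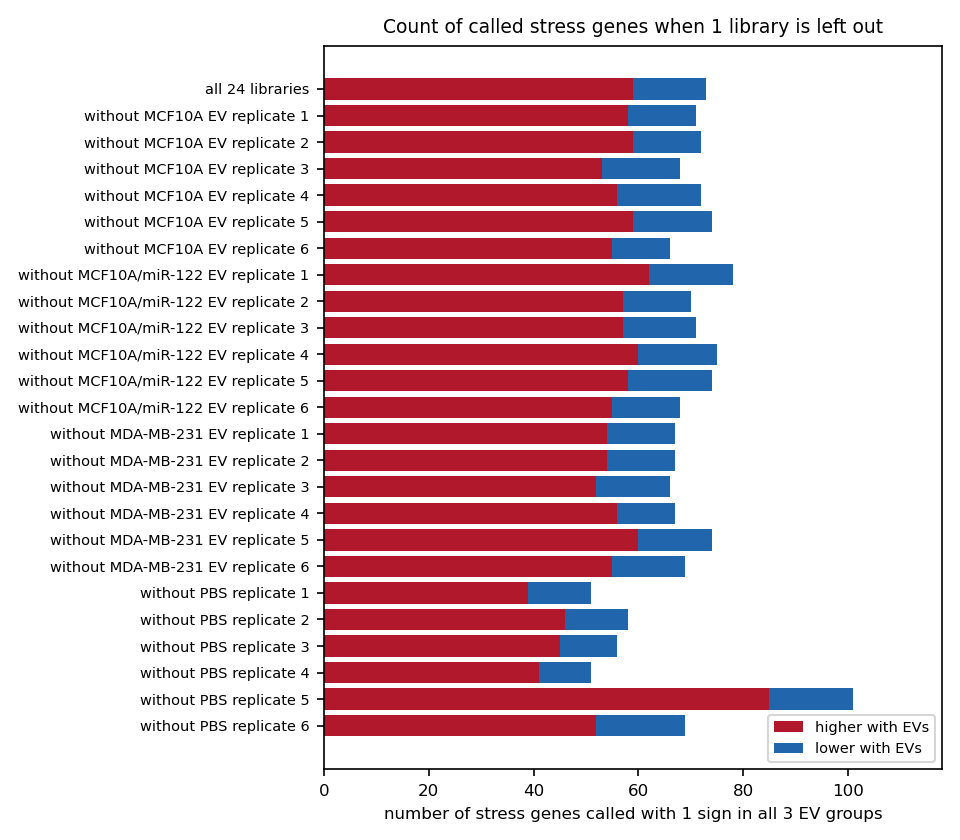
Number of stress genes that passed an adjusted p of 0.05 with 1 sign in the 3 EV groups, with all 24 libraries and without each library in turn, higher in EV livers in red and lower in blue. The count is 101 without PBS replicate 5 and 51 without PBS replicate 1 or 4.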

How the data were processed

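Liver RNA was made into 24 stranded mRNA libraries, per the labels' protocols. The authors deposited raw read counts per gene symbol, made with bcl2fastq 2.18.0.12 and TopHat2 on the mouse build mm9, per the submitters' processing notes. How reads were counted (tool, strand, multi-mapping reads) is not given in the sources used here, so genes that share sequence are named as uncertain. Groups follow the treatment label, and each library is taken as 1 mouse, which the labels do not state, so p-values may measure technical spread.

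Of 23240 gene rows, 27 that share 11 symbols were left out (0.0744% of counts). The 13773 genes that passed edgeR's filterByExpr were fitted with edgeR 4.0.16 in R 4.3.3 (TMM, quasi-likelihood F test, a mean per group, all 24 libraries), with the contrast of the mean of the 3 EV groups minus PBS, two-sided, adjusted by Benjamini-Hochberg over all genes. The same fit gave each EV group against PBS and the test among EV groups. Log2 fold changes use edgeR's default prior count, and SE derives from the F statistic. A prior count of 2 was used only for the log2 CPM in the correlations between livers. CPM use TMM-scaled library sizes, with a common biological coefficient of variation of 16.8%. The script was tested on simulated data.

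The members, the 13 stress lists and the tests were chosen with earlier results of these data known. The rule for named genes took the 12 largest rises and falls past the threshold with 1 sign in each EV group and an average log2 CPM of at least 1, the 4 members of each list with the smallest p, the 2 smallest p of other lists and a set of central pathway genes, and the genes printed were selected from these after their values were seen. Alternatives were DESeq2 1.42.0, limma-voom (limma 3.58.1), other scaling and filters, a replicate block, 1 mean for all EV libraries and libraries left out. Shared sequence is the percent of 32-mers of GENCODE M21 transcripts found in another gene, 10% or more being named. Promoter windows are the 250 bases upstream of RefSeq gene starts (GRCm38.p6), another build than that of the counts.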

Additional observations from a re-analysis of the deposited data

Results flagged for a closer look

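In 37 of 420 sets of 6 livers, over 105 genes, the highest or lowest liver lay far from its group by Dixon's test on log2 CPM, and chance alone gives about 1 in 20 such sets (the critical level of the test). PBS replicate 5 was high, in CPM, for Ppargc1a (12.2), Zbtb16 (43.3), Hspa8 (1705), Txndc11 (30.6), Hspa5 (1018), P4ha1 (20.9), Foxo1 (43.5) and Deaf1 (12). MCF10A EV replicate 5 was low, in CPM, for Lpin1 (87.4), Pck1 (898), Il6ra (10.2), Fkbp5 (37.3), Slc30a1 (25) and Foxo1 (21.9). The library labelled MCF10A/miR-122 EV replicate 3 was high, in CPM, for Pck1 (5647), Errfi1 (1649.8), Ppp1r3g (128) and Ip6k2 (77.1). PBS replicate 5 was low, in CPM, for Nr3c1 (57.6), Tifa (21.9) and Fzd6 (3.05). MCF10A EV replicate 4 was high, in CPM, for Keap1 (53.2) and Egr1 (32.6). MCF10A EV replicate 4 was low, in CPM, for Errfi1 (413) and Ctgf (2.67). The library labelled MCF10A/miR-122 EV replicate 5 was low, in CPM, for Nr3c1 (56.3) and Keap1 (44.7). The library labelled MDA-MB-231 EV replicate 3 was high, in CPM, for Saa1 (80.6) and Saa2 (56.8). The library labelled MCF10A/miR-122 EV replicate 4 was high, in CPM, for P4hb (1457). The library labelled MDA-MB-231 EV replicate 2 was high, in CPM, for P4hb (1394). The library labelled MDA-MB-231 EV replicate 4 was low, in CPM, for Errfi1 (1077). The library labelled MDA-MB-231 EV replicate 5 was low, in CPM, for Hspb8 (199.8). The library labelled MDA-MB-231 EV replicate 6 was high, in CPM, for Il1r1 (74.2). PBS replicate 3 was high, in CPM, for Atg14 (22.5). PBS replicate 3 was low, in CPM, for Dio1 (2.8). PBS replicate 6 was high, in CPM, for Pfkfb3 (11.9).

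The effect against PBS differed among the 3 EV groups for 38 of these 105 genes in edgeR's quasi-likelihood test, against 13.3% of all genes. The groups of the last set of libraries cannot be told apart from their set. The adjusted p was 0.0264 for Tsc22d3, 0.00394 for Klf15, 0.0029 for Tat, 0.0104 for Per1, 0.0485 for Il1r1, 0.0422 for Hp, 0.0174 for Saa4, 0.000227 for Lcn2, 0.0476 for Cebpb, 8.61e-11 for Saa1, 8.06e-09 for Saa2, 0.00144 for Orm2 and 0.0074 for Nfkbia. It was 0.0124 for Hspa2, 0.0464 for Dnajb4, 0.00127 for Herpud1, 0.00104 for Xbp1, 1.46e-06 for Slc7a11, 0.00879 for Ddit4, 0.0142 for Bbc3, 0.00473 for Trp53inp1, 0.00368 for Cdkn1a, 0.0248 for Pim3, 0.000227 for Pfkfb3, 0.00909 for Mt1 and 0.00882 for Mt2. It was further 0.0335 for Timm17a, 0.00394 for Tnfaip2, 0.0292 for Tnfrsf1b, 0.00314 for Ppp1r3g, 0.00961 for AA986860, 0.000714 for Sftpa1, 1.34e-12 for AV051173, 1.51e-12 for Prdx6b, 0.00139 for Per2, 5.6e-06 for Arntl, 0.000119 for Npas2 and 0.00146 for Ccnd1.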

How the results depend on the processing

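The counts of genes past the threshold moved by less than 1.5 times, in either direction, with other size factors, without a filter on low counts, with a strict filter and with limma-voom. The correlation of deviations between livers with the same replicate number was -0.43 to 0.374, above 0.1 in 13 of 36 pairs. Correlations between livers of unlike number were not computed, so this cannot tell whether the numbers pair the livers. With a replicate block the counts were 1771 for all EV against PBS, 1604 with 1 sign, 76 stress genes, 9 in each group, 165 for MCF10A EV and 1909 among EV groups. DESeq2 gave 11 stress genes in each EV group and 414 genes for MCF10A EV (158 higher and 256 lower). With 1 mean for all 18 EV libraries, so that differences between EV groups count as spread, 1005 genes passed (497 higher and 508 lower), 1004 with 1 sign. MCF10A EV and PBS fitted alone, with 12 libraries, gave 27 genes (14 higher and 13 lower). The other EV groups have no part in this fit, so it cannot check for 1 sign in each EV group. It gave 5 stress genes, all higher, that were among the 73. Without PBS replicates 3 and 5 together, 17 stress genes passed in each EV group and 340 genes for MCF10A EV.

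Over the fits that left out 1 library, all EV against PBS had 1058 (without PBS replicate 1) to 1977 genes (without PBS replicate 5), with 1 sign 962 to 1864, stress genes 51 to 101, stress genes in each EV group 2 to 24, MCF10A EV 26 (without PBS replicate 3) to 741 (without PBS replicate 5), and the test among EV groups 1319 to 2192.

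The log2 fold change changed sign for genes near 0 or with 1 extreme PBS liver. Without PBS replicate 3 it was 0.011 for Xbp1, -0.020 for Atf4, -0.064 for Cdkn1a, 0.021 for Mt1 and 0.19 for Mt2, without PBS replicate 5 it was 0.0024 for Xbp1, and without PBS replicates 2 or 4 it was -0.076 or -0.086 for Cdkn1a. Without replicates 3 and 5 together it was 0.065 for Xbp1, -0.024 for Atf4, 0.072 for Mt2 and 0.22 for A1bg. With MCF10A EV and PBS alone it was 0.30 for Xbp1, -0.086 for Per2, 0.81 for Arntl and 0.90 for Npas2. Over the fits that left out 1 library it ran from -0.068 to 0.011 for Xbp1, -0.020 to 0.049 for Atf4, -0.086 to 1.21 for Cdkn1a, -0.88 to 0.021 for Mt1 and -0.81 to 0.19 for Mt2. The cause of these changes was not tested, apart from fewer libraries. Depth limits the genes under about 1 CPM, such as Hif3a and Npas2.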
